A study of Homo sapiens with 2 samples.

Results

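Cyclins are the regulatory subunits of the cyclin-dependent kinases (CDKs), and their rise and fall drives the cell cycle. D-type cyclins act with CDK4 and CDK6 in G1 to phosphorylate the RB1 protein, and E-type cyclins act with CDK2 at the entry into S phase. A-type cyclins act in S phase and G2, B-type cyclins bring cells into mitosis with CDK1, and CCNF encodes cyclin F, the substrate-binding subunit of a ubiquitin ligase that does not partner with a CDK. MYBL2 (alias B-MYB) is a transcription factor that joins the MuvB complex and is known for activating genes expressed in G2 and mitosis, several of them through a promoter element called the cell cycle genes homology region (CHR) next to CCAAT boxes, the sites of the factor NF-Y.

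The 10 genes described here are the cell cycle cyclins of the D, E, A, B and F types, taken by family and not by any measured value, out of 20087 protein-coding genes. CCNB3, also a B-type cyclin by name, was not among them and is given with the other cyclins. The 5 genes of the D and E types (CCND1, CCND2, CCND3, CCNE1 and CCNE2) were compared as early cyclins with the 5 of the A, B and F types (CCNA1, CCNA2, CCNB1, CCNB2 and CCNF) as late cyclins. The data are from chromatin immunoprecipitation with sequencing (ChIP-seq) in A673 cells, an established Ewing sarcoma line, labelled as wild type and with no treatment named. There was 1 ChIP library, made with a rabbit monoclonal antibody against MYBL2 (per the study's methods, against its phosphorylated form), and 1 input library of sheared chromatin that served as background. Neither library was replicated, so differences between genes were not tested and the spread between cultures is unknown. Expression data of the line were not used here, so the cell type was not checked against markers.

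The authors' peak list held 66954 peaks on 23 chromosomes of hg19. Each peak has a fold enrichment, the ratio of overlapping ChIP fragments at its summit (the pileup) to the background estimated from the input, and its median over all peaks was 3.79. Whole-number pileups were recovered from the deposited values for all 66954 peaks, with a median of 20 fragments. Each interval given below for a peak is an exact 95% Poisson interval of the pileup, carried over to the fold enrichment. It covers counting error of the ChIP fragments only, with the background held fixed. It can be too narrow if copies of one molecule were counted, which was not examined here. A peak was counted at a promoter when it overlapped the 1000 bp on either side of any annotated transcription start site (TSS) of the gene, and in the gene body when it overlapped the gene but no such window.

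The promoter sequences of the cyclin genes are shown first, because they hold the elements through which MYBL2 complexes are known to act and can be read beside the peaks. Each is the 150 bases directly upstream of the outermost TSS, or at CCNA1 of the canonical TSS, which lies inside the annotated gene. The bases are read 5′ to 3′ on the gene's strand from GRCh37, which shares the coordinates of hg19. Capitals mark matches on either strand to the CHR (TTTGAA or TTTAAA, the latter the same on both strands), the CCAAT box (CCAAT, which reads ATTGG on the other strand), an E2F site (TTTCCCGC, TTTCGCGC, TTTGCCGC or TTTGGCGC), a MYB site (CAACNG or TAACNG) or an ETS core (CCGGAAGT). The 4 late promoters with a peak were CCNA2 (chr4:122745039-122745188, minus strand), CCNB1 (chr5:68462812-68462961, plus strand), CCNB2 (chr15:59397175-59397324, plus strand) and CCNF (chr16:2479245-2479394, plus strand):
CCNA2: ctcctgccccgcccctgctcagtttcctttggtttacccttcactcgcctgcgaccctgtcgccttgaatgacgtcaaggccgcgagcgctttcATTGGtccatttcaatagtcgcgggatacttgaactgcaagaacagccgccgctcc
CCNB1: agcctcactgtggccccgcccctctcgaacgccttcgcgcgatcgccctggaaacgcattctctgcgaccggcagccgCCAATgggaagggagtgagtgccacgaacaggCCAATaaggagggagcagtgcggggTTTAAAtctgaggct
CCNB2: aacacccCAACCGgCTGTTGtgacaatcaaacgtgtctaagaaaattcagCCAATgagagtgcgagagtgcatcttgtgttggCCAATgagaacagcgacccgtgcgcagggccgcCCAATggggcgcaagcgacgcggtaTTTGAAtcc
CCNF: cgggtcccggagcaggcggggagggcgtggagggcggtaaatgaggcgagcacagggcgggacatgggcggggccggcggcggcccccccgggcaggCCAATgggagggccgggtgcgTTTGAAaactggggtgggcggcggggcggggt
A CCAAT box stands in each of these 4 late promoters, and in CCNB1, CCNB2 and CCNF a CHR follows the last box on the same strand.

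CCND1 (chr11:69455774-69455923, plus strand) is shown as the early gene with the strongest peak, and CCNE1 (chr19:30302748-30302897, plus strand) and CCNA1 (chr13:37006482-37006631, plus strand) as the genes with no peak:
CCND1: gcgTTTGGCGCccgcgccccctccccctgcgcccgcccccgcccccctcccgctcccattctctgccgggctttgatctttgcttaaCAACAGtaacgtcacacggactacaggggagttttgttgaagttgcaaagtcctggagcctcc
CCNE1: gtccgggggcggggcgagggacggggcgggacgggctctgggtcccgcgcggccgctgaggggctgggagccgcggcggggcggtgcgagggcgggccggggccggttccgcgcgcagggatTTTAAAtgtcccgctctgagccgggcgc
CCNA1: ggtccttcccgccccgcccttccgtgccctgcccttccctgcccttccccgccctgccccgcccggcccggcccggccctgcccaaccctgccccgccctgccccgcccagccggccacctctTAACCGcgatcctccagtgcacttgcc
CCND1 carries an E2F site and a MYB site here, CCNE1 only a CHR and CCNA1 only a MYB site. A match is a description of the letters and not evidence that a factor is bound there.

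A promoter peak was present at 8 of the 10 cyclin genes, beside 59.4% of all protein-coding genes. Of the 10, 7 had a promoter peak with a fold enrichment of at least 5, beside 49.6% of all protein-coding genes. Early and late cyclins had the same count, 4 of 5 each, and the gene without a peak was CCNE1 among the early and CCNA1 among the late cyclins. The best promoter peak, the one with the largest fold enrichment, ranged from 4.72 to 34.5 in the early and from 9.21 to 22.7 in the late cyclins, so the late range lay inside the early range. The medians were 10.1 for 4 early genes and 13.4 for 4 late genes. The late median was 3.31 higher, with an interval of -2.57 to 9.25 from the counting error of the pileups, which includes 0. All protein-coding genes with a promoter peak, 11938 in number, had a median of 8.67.

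**Figure D1:**
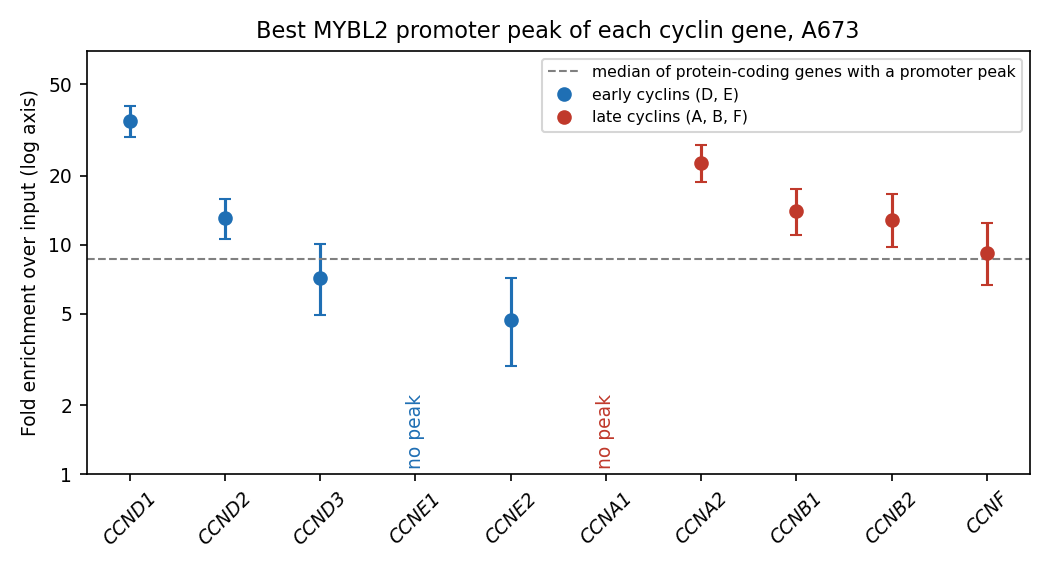
Fold enrichment over input (log axis) of the best MYBL2 promoter peak of each cyclin gene in the 1 ChIP library, early cyclins in blue and late cyclins in red. Bars are 95% Poisson intervals of the pileup and the dashed line is the median of 8.67 over protein-coding genes with a promoter peak. CCND1 lies highest at 34.5, CCNE2 lowest at 4.72, and CCNE1 and CCNA1 have no peak.

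Among the D-type genes, CCND1, the cyclin of early G1, had the strongest peak of all 10. It spanned chr11:69451051-69472476, its summit lay in the 5′ UTR on an annotated TSS, and its fold enrichment was 34.5 (interval 29.3 to 40.4) at a pileup of 155 fragments (131.6 to 181.4). This placed it 105th of 66954 peaks by fold enrichment. The peak was 21426 bp wide, the second widest of the list, against a median width of 319 bp, and it covered 100% of the 13.3 kb gene from upstream of the promoter to beyond the 3′ end. Only 104 protein-coding genes (0.518%) were covered in full. Since the whole gene lies in this 1 call, CCND1 has no separate gene body peak, and the peak also reaches a promoter of the neighbouring gene LTO1.

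CCND2, a D-type cyclin much studied in haematopoietic and germ cells, had a peak of a different shape, upstream of the gene and not on it. The peak spanned chr12:4376148-4378268 with a fold enrichment of 13.02 (10.6 to 15.8) and a pileup of 97 fragments. Its summit lay 1612 bp upstream of the outermost TSS, and 0% of the gene was covered. It counted as a promoter peak through its edge only, and was lost when the window was 500 bp or when the summit had to lie in the window. The 150 bases around the summit (chr12:4377250-4377399, plus strand) are shown because no other cyclin had its best summit so far from a TSS:
CCND2 summit: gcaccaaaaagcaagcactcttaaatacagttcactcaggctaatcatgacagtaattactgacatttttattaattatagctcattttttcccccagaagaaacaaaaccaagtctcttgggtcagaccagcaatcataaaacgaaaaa
This stretch held none of the motifs searched.

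CCND3, the third D-type cyclin, is the longest of the genes at 115.4 kb with TSSs far apart, and it had 4 promoter peaks. The best, at chr6:42018177-42019008, had a fold enrichment of 7.19 (4.96 to 10.1) at a pileup of 31 fragments, lay 291 bp upstream of the outermost TSS and is shared with the promoter of TAF8. A second peak, 168 bp upstream of the TSS of the canonical transcript, reached 5.62 (3.68 to 8.25), and the other 2 reached 3.98 and 2.47. The intervals of the first and second peak overlap, and the difference between them was not tested. CCND3 also had the only gene body peak of an early cyclin, with its summit in the 3′ UTR and a fold enrichment of 5.00.

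Of the E-type genes, which drive entry into S phase, 1 had a peak. CCNE2 had 2 promoter peaks, the better of them at chr8:95908322-95909134 with a fold enrichment of 4.72 (2.97 to 7.16) and a pileup of 20 fragments, equal to the median pileup of the whole list. Only 13.5% of protein-coding genes with a promoter peak had a weaker best peak. Both peaks lie in promoter windows that CCNE2 shares with NDUFAF6, so the list cannot assign them to either gene.

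CCNE1, the other E-type gene (chr19:30302898-30315219), had no peak at its promoter, in its body or within 50 kb. The nearest peaks lay 95.2 kb to its left, at a C19orf12 promoter, and 117.4 kb to its right, at a URI1 promoter. CCNA1, the A-type cyclin best known from meiosis in the testis (chr13:37005657-37017007), had none at its promoter or in its body either, and its nearest peak lay 38.2 kb to the right with a fold enrichment of 3.59. Both promoters are rich in CpG, with an observed to expected ratio of 0.974 at CCNE1 and 0.731 at CCNA1 against a median of 0.724 over protein-coding genes. Of the 13242 protein-coding genes with a ratio of at least 0.6, 21.0% had no promoter peak. Where the background was at its lowest level of 3.45 fragments, the smallest pileup called was 11 fragments, so weaker signal at these genes was not detectable at this depth. Whether these genes are intact in the line was not assessed, since the list holds only called peaks.

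CCNA2, the A-type cyclin of dividing cells, had the strongest late peak. It spanned chr4:122743968-122745475 with a fold enrichment of 22.7 (18.8 to 27.2) and a pileup of 118 fragments (97.7 to 141.3), and it ranked 421st of all peaks. Its summit lay 22 bp upstream of the TSS, within the sequence shown, and 95.8% of protein-coding genes with a promoter peak had a weaker one. Another 5 peaks of 2.81 to 5.01 followed along the gene, the last of them 3494 bp wide over the 3′ UTR, and peaks covered 61.0% of its 7.44 kb.

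CCNB1 and CCNB2 had similar promoter peaks. At CCNB1, the main mitotic cyclin, the peak spanned chr5:68462407-68464318 with a fold enrichment of 13.98 (11.04 to 17.5), a pileup of 75 fragments and a summit 26 bp downstream of a TSS. At CCNB2 it spanned chr15:59396839-59397954 with a fold enrichment of 12.8 (9.78 to 16.6), a pileup of 57 fragments and a summit 11 bp downstream of a TSS. The intervals overlap, and the difference between the promoters was not tested. The gene bodies differed in their peaks. CCNB1 had 12 peaks in all that covered 51.4% of its 11.1 kb, and CCNB2 had 3 that covered 6.54% of its 19.9 kb. Of the CCNB1 peaks, 5 beyond the main one counted as promoter peaks only because some transcripts are annotated to start in the distal part of the gene. The strongest of these, at 8.09 (5.70 to 11.2), had its summit in the 3′ UTR.

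CCNF, the gene of cyclin F, had a promoter peak at chr16:2478456-2480214 with a fold enrichment of 9.21 (6.64 to 12.5) and a pileup of 40 fragments, close to the median over protein-coding genes with a promoter peak. Its summit lay 23 bp downstream of a TSS. CCNF had 10 gene body peaks, and CCNB1 had 6, or 11 when only its outermost TSS counted as a promoter. The strongest of them, at chr16:2508665-2510850, had a fold enrichment of 10.1 (7.51 to 13.4), but its summit lay beyond the gene's 3′ end, in the promoter window of TEDC2.

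Along the order of the 8 genes, CCND1 and then CCNA2 each lay above the next gene with no overlap of their intervals. The intervals of CCNB1, CCND2 and CCNB2 overlapped each other, and so did those of each later pair of neighbours, CCNB2 with CCNF, CCNF with CCND3 and CCND3 with CCNE2.

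**Figure D2:**
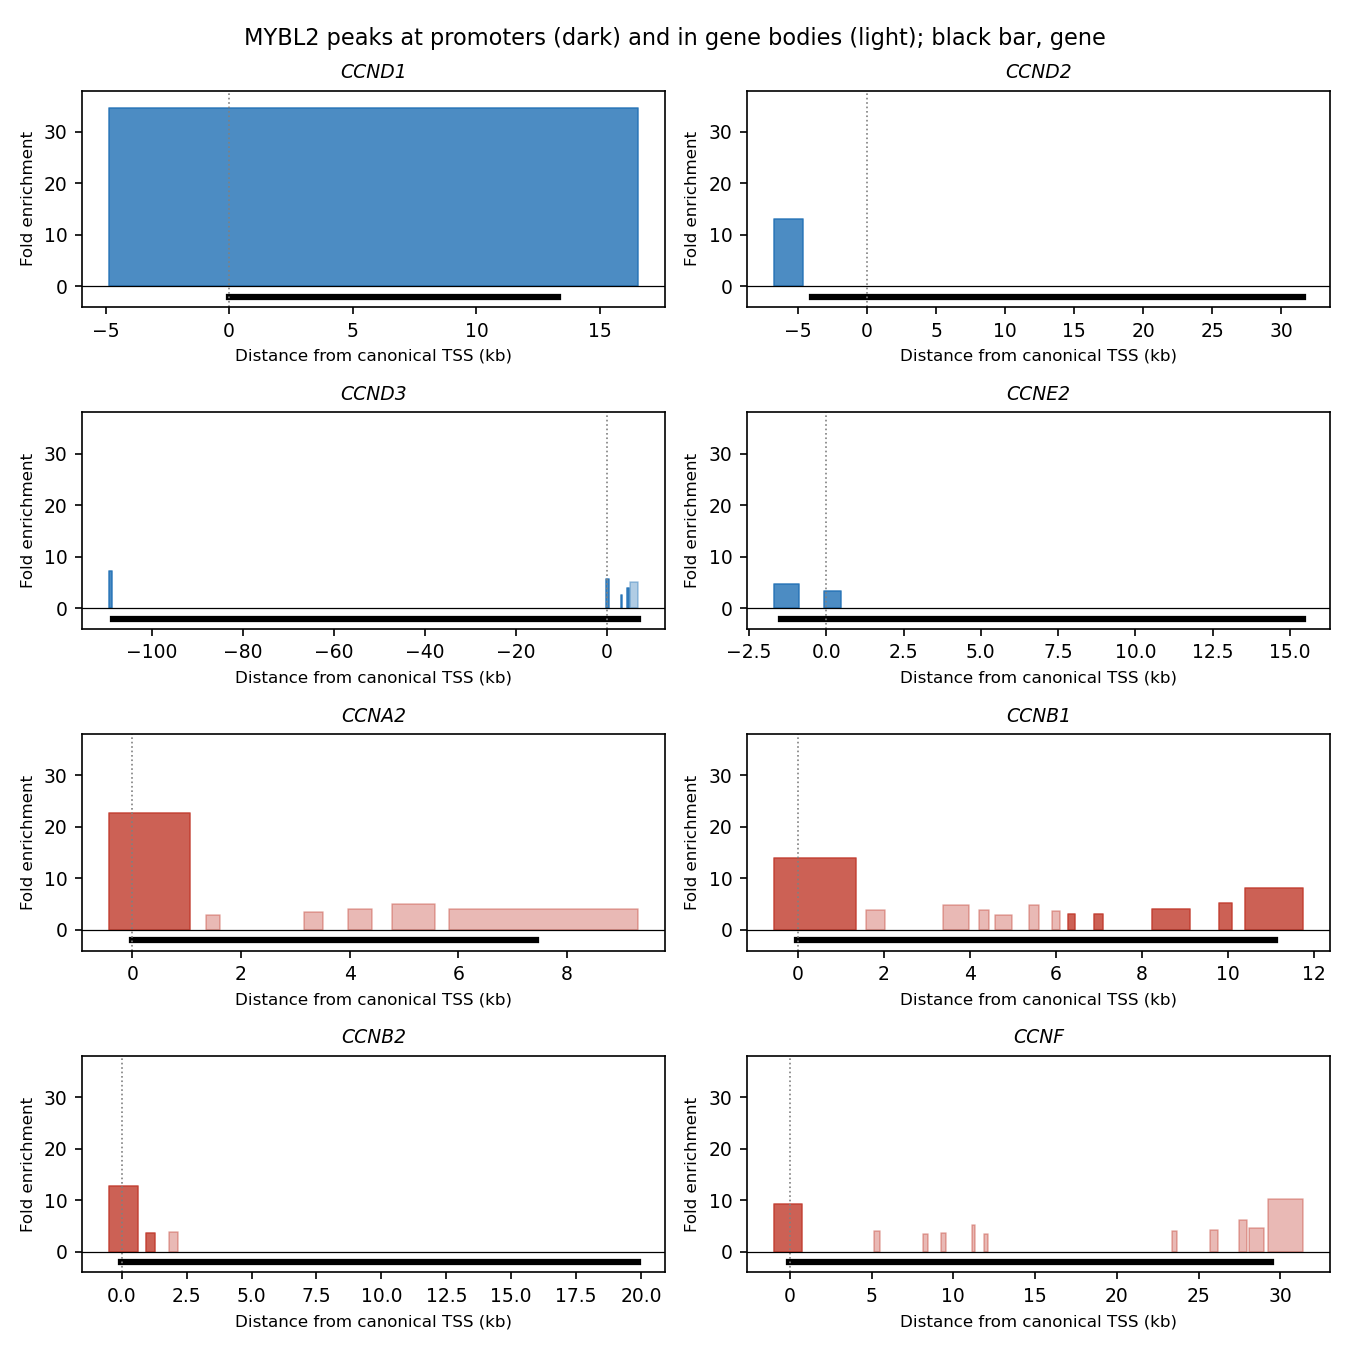
Maps of the 8 cyclin genes with a peak, with distance from the canonical TSS in kb on the horizontal axis (scale differs by gene, positive in the direction of transcription) and fold enrichment as bar height; bar width is the called peak, dark bars are promoter peaks, light bars gene body peaks and the black line is the gene. A single call spans CCND1, the CCND2 peak stands upstream of the gene, and CCNA2, CCNB1 and CCNF carry 6, 12 and 11 peaks.

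Peaks along the gene were mostly at the late cyclins CCNF, CCNB1 and CCNA2. Gene body peaks outside the promoters were present in 5 of the 10 genes, beside 38.1% of all protein-coding genes. Of the 23 such peaks, 22 lay in late genes, 10 of them in CCNF, 6 in CCNB1, 5 in CCNA2, 1 in CCNB2 and 0 in CCNA1. The early genes held 1. With a fold enrichment of at least 5 the split was 4 late to 1 early, and the late peaks were 3 at CCNF and 1 at CCNA2. The strongest of these CCNF peaks had its summit beyond the gene's 3′ end. With promoters at the outermost TSS only the split was 27 late to 5 early. CCND1, covered by 1 call, could add no such peak under any of these rules. The late gene body peaks were weak, with fold enrichments of 2.81 to 10.1 and a median of 3.99, close to the median of all peaks. Longer genes can hold more peaks, so the share of each gene covered by peaks was set beside protein-coding genes of 7.44 to 35.6 kb, 7415 in number, with a median of 2.10% and a 90th percentile of 17.8%. CCND1 at 100%, CCNA2 at 61.0% and CCNB1 at 51.4% lay above that percentile. CCNF at 16.1%, CCNE2 at 6.57% and CCNB2 at 6.54% lay between it and the median, while CCND2, CCNE1 and CCNA1 were at 0%. CCND3, longer than this range, was at 2.71%. The peaks within 50 kb of a gene, its own peaks included, numbered 22 at CCNF, 17 at CCNB1, 12 at CCNA2 and 11 at CCND1. The gene's own peaks made up 11, 12, 6 and 1 of these. The other 6 genes had 0 to 10 peaks, with a median of 7 over the 10 genes and of 5 over protein-coding genes. Transcription and chromatin state of these genes were not analysed here.

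**Figure D3:**
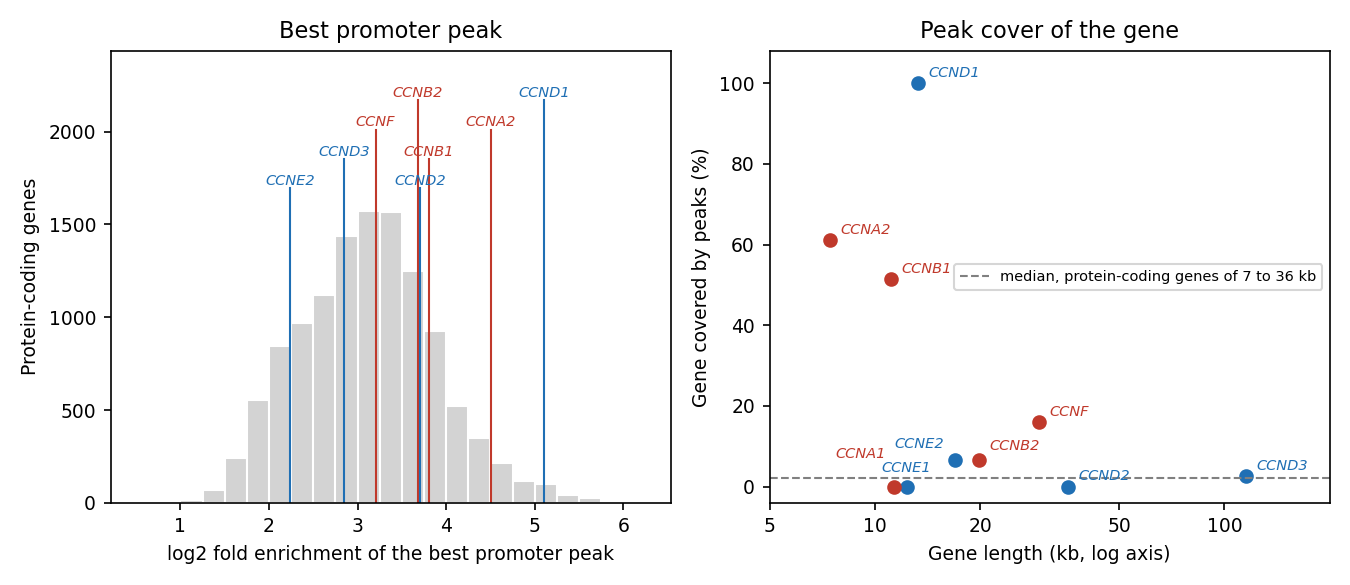
Left, histogram of the log2 fold enrichment of the best promoter peak over protein-coding genes with one, with vertical lines at the cyclin genes. Right, share of each cyclin gene covered by peaks (%) against gene length (kb, log axis), with the median of 2.10% for protein-coding genes of like length as a dashed line; CCND1, CCNA2 and CCNB1 stand apart at 51.4% to 100%. Early cyclins are blue and late cyclins red.

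The summits of the best promoter peaks were also placed relative to the TSS. In all 4 late genes with a promoter peak the best summit was within 26 bp of an annotated TSS. In the early genes the distances were 0 bp at CCND1, 291 bp at CCND3, 299 bp at CCNE2 and 1612 bp at CCND2. No share over all protein-coding genes is given for this distance, so the values describe these genes only and mark no trait of late cyclins.

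The motifs were counted in the promoter window from 250 bp upstream to 50 bp downstream of the TSS nearest the best summit. This window holds the best summit of CCND1 and of the 4 late genes with a peak. The best summits of CCND2, CCND3 and CCNE2 lie outside it, so early and late counts are not on a like footing. A CHR was present in 3 of the 8 genes with a promoter peak, CCNB1, CCNB2 and CCNF, all of them late, beside 14.4% of protein-coding genes with a promoter peak. A CCAAT box was present in 5, all 4 late genes and CCND2, beside 35.9%. A MYB site was present in 4, CCND1, CCND3, CCNB1 and CCNB2, beside 42.8%. An E2F site was present only at CCND1, beside 5.71%, and an ETS core at 0 of the 8, beside 9.71%. With so few genes these counts are a description. CCNA2 held none of the CHR letters searched in this window. Its sequence shown above holds cttgaa, which differs from TTTGAA in the first base only, and such near matches were not counted at any gene. The search therefore does not show that CCNA2 lacks a CHR. CCNE1, with no peak, had a CHR in its promoter, as 18.6% of all protein-coding genes did in the same window at the canonical TSS. At that TSS the early gene CCND2 had a CHR too, so the count at late genes alone depends on which TSS is taken. The same holds for the CCAAT box. At the canonical TSS it was present at CCND3, CCNE2, CCNA1, CCNA2, CCNB1, CCNB2 and CCNF but not at CCND2, beside 35.9% of all protein-coding genes.

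The counts were smaller right under the summits. Within 50 bp of the best summit, a CHR was present at CCNE2 only (background 5.09%), a CCAAT box at CCNA2 only (10.0%) and a MYB site at CCNE2, CCNB1 and CCNB2 (17.6%). E2F sites and ETS cores were present at none of the 8 genes (1.93% and 3.70%). Within 100 bp, the CHR and the CCAAT box next to it entered the window at CCNB1 and CCNB2, and the counts became 3 for the CHR (9.73%), 3 for the CCAAT box (20.2%) and again 3 for the MYB site (31.4%).

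**Figure D4:**
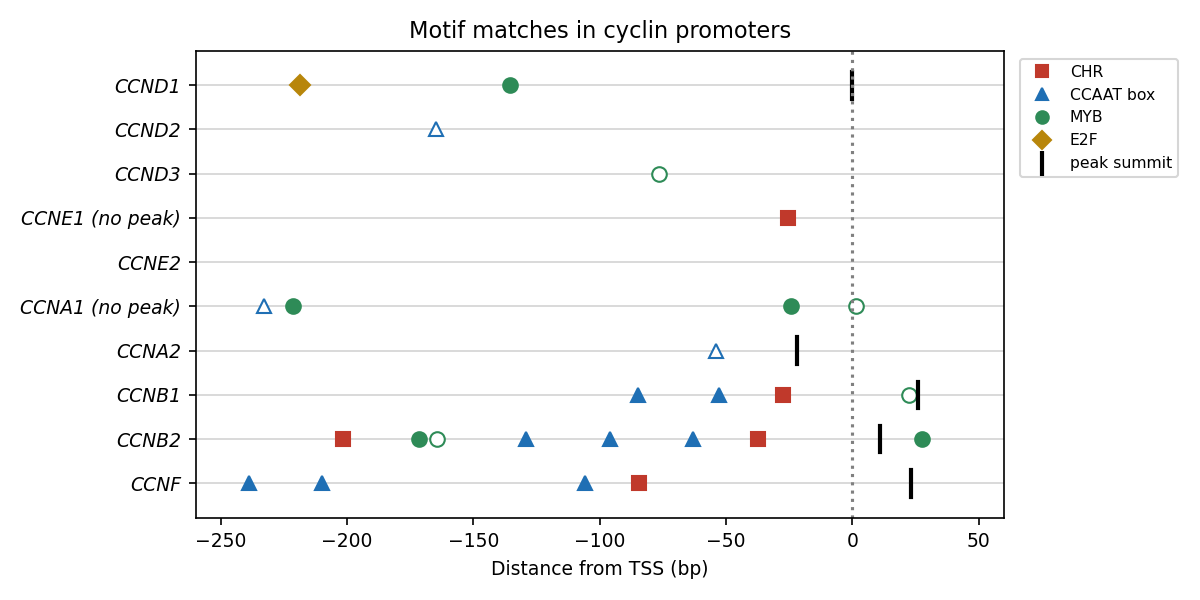
Positions of motif matches from 250 bp upstream to 50 bp downstream of the TSS nearest the best summit (canonical TSS for CCNE1 and CCNA1), with distance from the TSS in bp on the horizontal axis. Filled symbols are on the gene's strand, open symbols on the other, and black ticks are peak summits that fall in the window. CCNB1, CCNB2 and CCNF have CCAAT boxes upstream of a CHR, with summits 11 to 26 bp downstream of the TSS.

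Other cyclins and the partners of the cell cycle cyclins were set beside these genes. Of 18 other cyclin family genes, whose products act mainly in transcription, splicing and other processes, 15 (83.3%) had a promoter peak, with a median best fold enrichment of 11.3. The strongest were CCNL1 at 23.6, a cyclin linked to splicing, CCNT1 at 23.4, the cyclin of the elongation factor P-TEFb, and CCNJ at 13.6. CCNB3, CCNI2 and CCNO had none. Of 24 partners and regulators (CDKs, the CDK subunits CKS1B and CKS2, CDK inhibitors, CDC25 and WEE1 family enzymes, factors that degrade cyclins, and RB1), 21 (87.5%) had a promoter peak, with a median of 13.2. The strongest were CDC20 at 27.5, an activator of the anaphase-promoting complex, CDKN2C at 23.4, an inhibitor of CDK4 and CDK6, and FZR1 at 22.4, the other activator of that complex. CDKN1C, CDKN2A and CDKN2B, all encoding CDK inhibitors, had none, and whether these loci are intact or mappable in this line was not assessed.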

How the data were processed

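Chromatin of A673 cells was cross-linked, sheared and immunoprecipitated for MYBL2, and 1 ChIP and 1 input library were sequenced. The authors, per their methods, mapped the reads to hg19 with Bowtie2, kept those of sufficient mapping quality and ran MACS2 for narrow peaks against the input. The submitters' processing notes give Bowtie2 2.1.10 and MACS2 2.0.10. What a later cleaning of the list removed is not given in the sources used here, and 10 peak numbers are missing, 0 of them within 20 kb of a cyclin gene.

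The deposited fold enrichment is a linear ratio, the deposited p-value and q-value are written as −log10, and the deposited score follows from the q-value. The largest q was 0.0493. Pileups were solved from fold enrichment, (pileup + 1)/(background + 1), and the Poisson p, a step tested on simulated data; 66954 peaks gave a whole number, and the recomputed −log10 p was off by at most 3.49e-05. Total reads per library were not used here, and depth was read from the pileups at peaks.

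The GENCODE annotation in GRCh37 coordinates gave 20087 protein-coding genes. Lengths run from gene start to gene end. Scripts used Python 3.11.15, pandas 2.3.3, scipy 1.17.1 and pysam 0.24.0. Named were all 10 cyclins and, of the other lists, genes without a promoter peak and the 3 strongest. The interval of the difference of medians sets the lower bounds of one group against the upper bounds of the other. Members, lists and the comparison were chosen with earlier results of these data known. Alternatives were other promoter windows, stricter peaks, another ranking of peaks and leaving out single genes.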

Additional observations from a re-analysis of the deposited data

How the results depend on the processing

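The number of cyclin genes with a promoter peak stayed at 7 or 8 under every alternative run: CCND2 lost its peak with a 500 bp window or with the summit required in the window, and CCNE2 with a fold enrichment of at least 5. The number of promoter peaks was 18 and became 29 with a window of 5000 bp upstream to 1000 bp downstream, 9 with the outermost TSS only and 10 with a fold enrichment of at least 5. Gene body peaks numbered 23 and became 14 with the 5000 bp window and 15 with −log10 q of at least 5. A fold enrichment of at least 5 left 5 of them, in 3 genes. Their number rose to 25 with the summit in the window and to 27 with a 500 bp window. With the outermost TSS only it was 32, in 6 genes. The median number of peaks within 50 kb fell from 7 to 3.5 with a fold enrichment of at least 5. The late minus early difference of 3.31 stayed positive, at 0.393 with a fold enrichment of at least 5, 3.88 without CCNF and 6.22 with a 500 bp window, with the summit in the window, or without CCND1, the last chosen after seeing the data. Depth limits what the list can show at genes without a peak. No paired analysis was possible because there was a single ChIP library.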

Other observations

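The CCAAT box nearest the CHR and the CHR itself had like spacing in 3 late promoters. From the start of the box to the start of the CHR on the same strand it was 25 bp at CCNB1, 25 bp at CCNB2 and 21 bp at CCNF. A spacing of 15 to 35 bp, a range chosen after these values were seen, was present in 79 of 19809 protein-coding promoters (0.399%). Neighbouring CCAAT boxes lay 32 bp apart at CCNB1, 33 bp and again 33 bp apart at CCNB2, and 29 bp and 104 bp apart at CCNF.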
